A study of Mus musculus with 17 samples.

Results

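The transcriptome of the wild-type mouse kidney cortex after a fast was described from the 5 WT libraries among the 17 mRNA-seq libraries of the series. In these libraries 21714 protein-coding or mitochondrially encoded genes, of 48795 genes counted, were ranked by their mean CPM, the counts of a gene scaled to the total on all genes of the library (10000 CPM are 1 percent of the counts). A count was found for 16624 of the ranked genes, and 12439 had a mean of at least 1 CPM. The study deleted the transcription factor ATF4 in proximal tubules and compared cortices with and without it. WT mice carried no allele named in the labels beyond Wild Type. The GCERAd mice (ATF4 KO, 5 libraries), used here only for comparison, carried floxed ATF4 alleles and a tamoxifen-inducible Cre driven by a piece of the Ggt1 promoter, which is active in proximal tubules, and were injected at 6 weeks of age with 200 µL of 20 mg/mL tamoxifen on 2 days. According to the methods, mice were fasted for 16 h in metabolic cages about a month after the injections. Whether WT mice also received tamoxifen, their exact age and their sex were not given in the sources used here. No fed group was compared, so what belongs to the fast and what belongs to the cortex at any time cannot be told apart.

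Most of the renal cortex is proximal tubule, an epithelium that reabsorbs the bulk of the filtered sodium, phosphate, glucose, amino acids and small proteins through a brush border, driven by the basolateral sodium pump. The work is paid for almost wholly by mitochondria that burn fatty acids, ketone bodies and other fuels, since proximal tubule cells make little use of glucose. In a fast the same cells make glucose from lactate, glutamine and glycerol, and the kidney joins the liver in supplying it to the blood.

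The 5 WT libraries held 53688512 to 66988264 counts, of which 98.5 to 98.6% fell on protein-coding genes. Kidney markers were present, although sums over lists of unlike size do not by themselves tell cortex from the rest of the kidney. The 11 proximal tubule markers were all over 1 CPM, with a summed level of 10560 to 12727 CPM, against 7335 to 10509 CPM for 7 markers of the thick ascending limb, 392 to 549 CPM for 7 podocyte markers and 105 to 121 CPM for 7 macrophage markers. Xist, the transcript of the inactive X chromosome (chromosome X, 103460366 to 103483254), was present in every WT library, at 190, 180, 146, 268 and 425 CPM in WT 1 to WT 5. Of 4 genes on the Y chromosome, Uty, Ddx3y and Eif2s3y had 0 counts in all 5, and Kdm5d had 18 counts in WT 2 and 0 in the others, where 3 counts, the limit that a count of 0 allows, are 0.0448 to 0.0559 CPM. Apart from those 18 counts, this is the pattern of female mice. Atf4 had 84.8 ± 10.5 CPM and Ggt1, whose promoter drives the Cre of the knockout, 582 ± 83.8 CPM. WT 2 stood apart in the kind of counts it held: processed pseudogenes took 0.0644% of its counts and 0.0327 to 0.0368% of those of the other WT libraries. The extraction protocol names fewer mice per cohort than the 5 WT libraries, so some of these libraries may come from the same animal, and the spread between libraries may in part lie within an animal. Among genes that did not move with the pseudogene share, the 500 most variable over WT 1, 3, 4 and 5 were taken. Over these 500, WT 1 and WT 2 were the closest pair. Their root mean square log2 difference was 0.231, against 0.353 to 0.519 for the other pairs. The choice of genes widens the pairs among WT 1, 3, 4 and 5, so only pairs with WT 2 compare fairly. The other pairs with WT 2 were at 0.379 to 0.460. Over the stable genes WT 1 and WT 2 were not the closest pair, at 0.197 against 0.183 for WT 4 and WT 5. Over all 10640 genes compared, the squared differences of WT 1 and WT 2 were a median of 20.5 times those expected from counting alone, within the 12.0 to 31.9 of the other pairs. Repeat libraries of 1 cortex could also exceed counting noise, so these values do not show separate animals. The libraries were counted separately, and results with WT 1 and WT 2 averaged are given beside the comparison with GCERAd.

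A few genes took up much of the library. The leading gene alone, mt-Co1, held 7.58% ± 0.443 of all counts (SD, n = 5), the 10 leading genes 22.9% ± 0.819, the 25 leading genes 27.3% ± 0.742 and the 100 leading genes 35.8% ± 0.628. It took 409 ± 19.1 genes to reach 50% of the counts on ranked genes, and 789.6 ± 25.7 nuclear genes to reach 50% of the nuclear protein-coding counts. The order was stable: between any pair of WT libraries 89 to 94 of the 100 leading genes were shared. No sample stood apart in this curve, the 100 leading genes holding 36.2, 36.5, 35.2, 36.1 and 35.1% in WT 1 to WT 5. The boundary of the 100 was not sharp, with Aldoa and Ghr at 768 and 767 CPM inside it and Glul and Hspa9 at 765 and 760 CPM just outside.

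**Figure D1:**
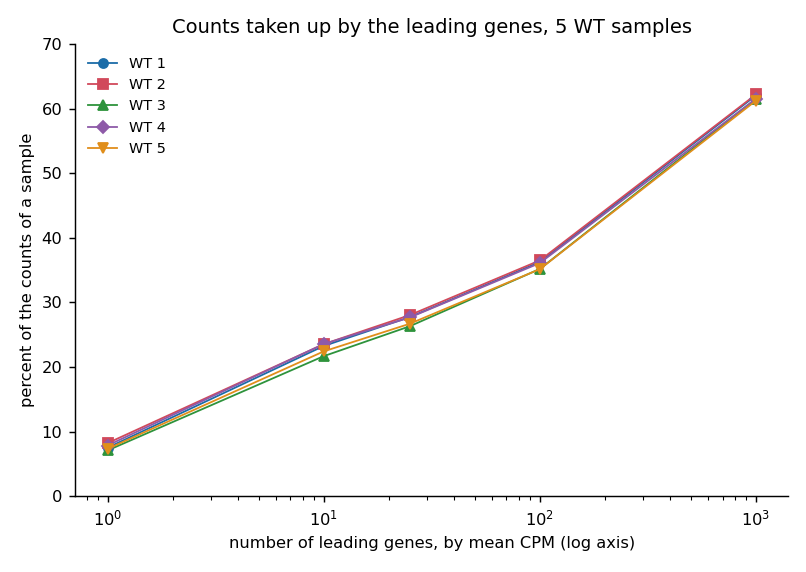
Percent of the counts of each WT sample (vertical axis) held by the 1, 10, 25, 100 and 1000 genes of highest mean CPM (horizontal axis, log scale), with a line and marker for each of the 5 samples. The lines run close together, from 7.07 to 8.20% for the leading gene to 61.2 to 62.2% for the leading 1000.

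Genes encoded in the mitochondrial genome formed the largest named class, with 18.2% ± 0.754 of all counts (18.2, 18.5, 17.1, 19.1 and 17.8% in WT 1 to WT 5). Nearly all of it came from 6 of the 13 mRNAs, which code for subunits of respiratory complexes. These 6 held 17.7% ± 0.686 of the counts: mt-Co1 (complex IV) with 75814 ± 4432 CPM, mt-Cytb (complex III) with 32055 ± 1719 CPM, and the complex I subunits mt-Nd1, mt-Nd5, mt-Nd2 and mt-Nd4 with 14779 to 20117 CPM. Per length the order changed little, with 49071 FPKM (CPM per kilobase of merged exons) for mt-Co1, 28020 for mt-Cytb and 21021 for mt-Nd1. Each of these 6 mRNAs varied by no more than 1.24-fold between the highest and lowest WT library.

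The other 7 mitochondrial mRNAs together held 0.124% ± 0.0661 of the counts. They include mt-Co2 and mt-Co3, which code for the remaining mitochondrial subunits of complex IV, and mt-Atp6 and mt-Atp8, which code for ATP synthase subunits. mt-Co2 was at 350, 52.7, 259, 520 and 705 CPM in WT 1 to WT 5. WT 2 was the lowest library for mt-Co2, mt-Co3, mt-Atp6, mt-Atp8, mt-Nd3 and mt-Nd4l, and the highest for mt-Nd6, with 151 CPM against 52.2 to 79.0 CPM. Of the 7, 5 share almost all of their sequence with a second annotated gene. The part of their 31-base words found in another gene was 100% for mt-Co2, 99.9% for mt-Co3, 99.5% for mt-Atp6, 98.9% for mt-Nd4l and 98.1% for mt-Nd3, all in unprocessed pseudogenes, against 0% for mt-Nd1 and 6.55% for mt-Cytb. mt-Atp8, at 7.47%, mt-Nd6, at 7.36%, and the abundant mt-Co1 and mt-Nd4, at 63.9 and 62.8%, do not follow that order. How reads that fit several places were counted is not given in the sources used here, and the part of such reads in these values was not tested. The first 60 coding bases of an abundant mRNA, mt-Cytb (chrM:14145-14204, plus strand), and of a scarce one, mt-Co3 (chrM:8607-8666, plus strand), are shown with the best match in the closest copy of each, Gm11410 (chr4:80003989-80004048, plus strand) and Gm28437 (chr1:24613912-24613971, minus strand). Sequences are from the GENCODE M21 transcripts on GRCm38, and capitals mark the bases that differ between a gene and its copy.
mt-Cytb: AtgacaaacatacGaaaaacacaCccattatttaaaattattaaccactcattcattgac
Gm11410: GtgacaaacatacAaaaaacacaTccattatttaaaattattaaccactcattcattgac
mt-Co3: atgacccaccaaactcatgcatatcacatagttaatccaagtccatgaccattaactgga
Gm28437: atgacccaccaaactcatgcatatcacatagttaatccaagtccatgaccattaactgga
The mt-Cytb window differs from its copy at 3 bases, and the mt-Co3 window at 0. The copy Gm28437 was itself counted at 97.2 CPM in WT, and Gm11410 at 0.914 CPM.

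**Figure D2:**
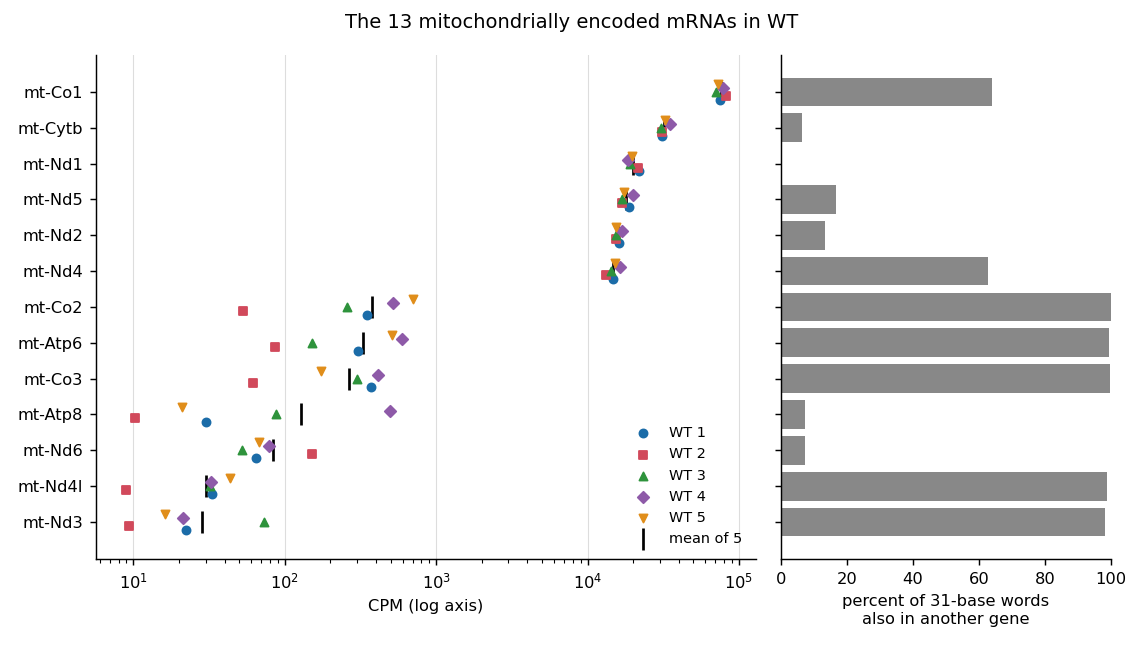
Left, CPM (log axis) of the 13 mitochondrially encoded mRNAs in each WT sample, with the mean of the 5 as a bar. Right, percent of the 31-base words of each gene that also occur in another gene. The 6 abundant mRNAs lie above 13169 CPM with little spread, and the other 7 lie below 705 CPM with wide spread.

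Outside the mitochondrial genome, 17 classes of nuclear genes were counted, and all named classes together covered 52.4% ± 0.422 of the counts. Antioxidant, selenium, metal and iron genes held the largest named nuclear share (5.08% ± 0.332), followed by plasma membrane and other Slc and Slco transporters (3.13% ± 0.151), translation factors, chaperones and proteasome (2.72% ± 0.0551), nuclear-encoded oxidative phosphorylation (2.61% ± 0.167) and kidney secreted and hormone genes (2.56% ± 0.239). ATPases and channels held 2.38% ± 0.0896, fatty acid oxidation and ketone body genes 2.29% ± 0.140, amino acid metabolism 2.13% ± 0.0423, gluconeogenesis and glycolysis 2.03% ± 0.0739 and cytosolic ribosomal proteins 1.98% ± 0.131. Protein-coding genes in no named class held 46.5% ± 0.406, and non-coding genes and pseudogenes 1.08% ± 0.0277. The mix was much alike in the 5 libraries. Across the 20 groups of genes the highest library exceeded the lowest by 1.02- to 1.24-fold, with kidney secreted genes the most spread. WT 2 lay lowest for cytosolic ribosomal proteins (1.77% against 1.94 to 2.08% in the others). Its 3 leading members did not move together: in WT 2 Rplp0 was lowest (594 CPM), and Rpl4 and Rps2 were highest (672 and 545 CPM).

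**Figure D3:**
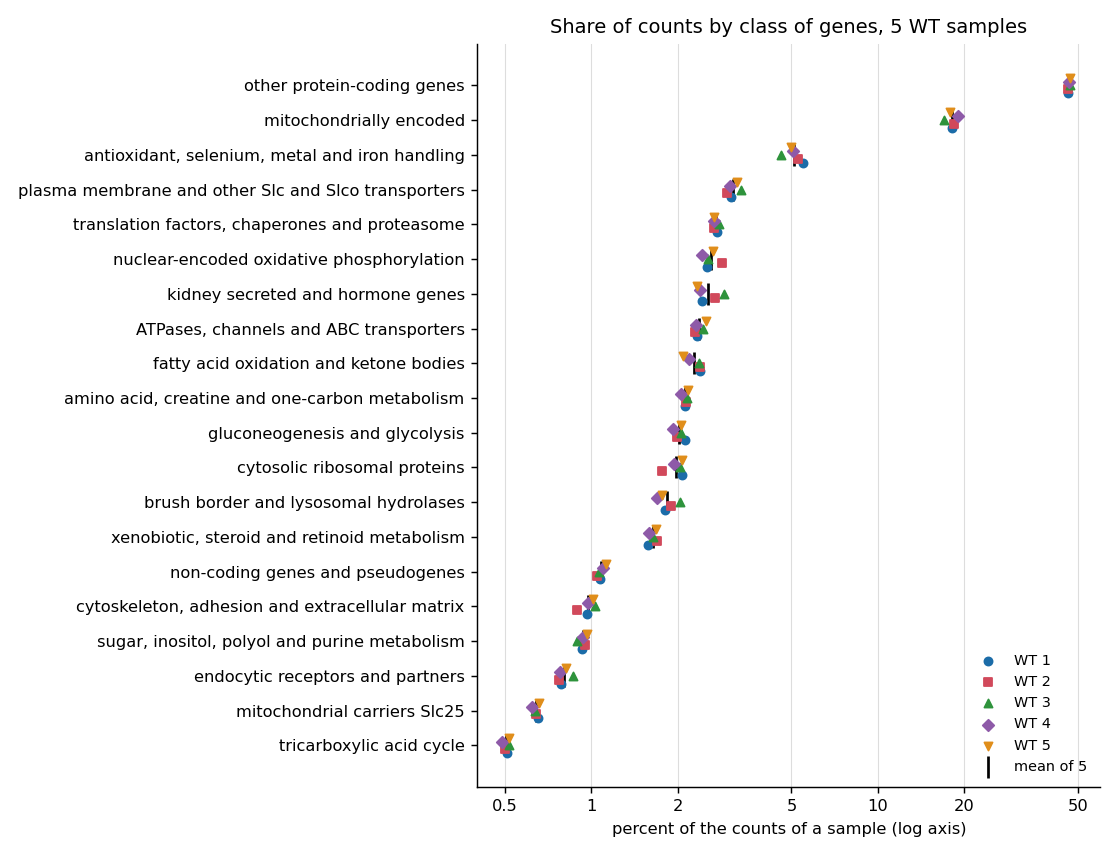
Percent of the counts of each WT sample (log axis) held by 18 named classes of genes, by other protein-coding genes and by non-coding genes and pseudogenes, with the mean of the 5 as a bar. The mitochondrially encoded class lies at 17.1 to 19.1%, and no other named class exceeds 5.50%.

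A single gene made up most of the antioxidant class. Gpx3, which codes for the plasma glutathione peroxidase that the kidney secretes into the blood (ENSMUSG00000018339, chromosome 11, 54902453 to 54910377), had 37185, 35446, 28547, 33624 and 32242 CPM in WT 1 to WT 5. It was the nuclear gene with the most counts in every library, 65.6% ± 2.38 of its class, with WT 3 the lowest. Without it the class would hold 1.74% ± 0.0397. The iron storage genes Fth1 and Ftl1 came next with 4063 ± 171 and 1365 ± 197 CPM. Ftl1 shares 64.1% of its words with other genes and was lowest in WT 2, at 1061 CPM.

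3 of the leading genes of this class code for selenoproteins, in which an in-frame TGA codon is read as selenocysteine. Besides Gpx3 they are Gpx1, the intracellular glutathione peroxidase (1314 ± 123.5 CPM), and Selenop, which carries selenium between tissues (1253 ± 49.97 CPM). The coding sequences of Gpx3 and Gpx1 hold 1 such codon each, at codons 73 and 47, and that of Selenop holds 10, the first at codon 59. The coding sequence around the first of them is shown with the TGA in capitals, for Gpx3 (chr11:54907229-54907279), Gpx1 (chr9:108339424-108339480) and Selenop (chr15:3274821-3274874), all on the plus strand of GRCm38.
Gpx3: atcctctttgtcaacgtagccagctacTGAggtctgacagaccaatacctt
Gpx1: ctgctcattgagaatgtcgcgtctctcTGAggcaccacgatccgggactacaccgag
Selenop: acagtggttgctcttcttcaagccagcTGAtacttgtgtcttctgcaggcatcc

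Genes for proteins that the kidney secretes or sheds were led by Kap, the kidney androgen-regulated protein of the proximal tubule (ENSMUSG00000032758, chromosome 6, 133849851 to 133853762). Kap had 5698, 8468, 9233, 5262 and 5713 CPM in WT 1 to WT 5. WT 2 and WT 3 lay above the other 3 libraries, and its SD of log2 CPM, 0.38, was the second highest among the leading genes. Umod codes for uromodulin, a urinary protein made in the thick ascending limb, and had 4118, 4407, 5491, 3667 and 3631 CPM, highest in WT 3. Klk1, the tissue kallikrein of the connecting tubule, had 1623 ± 329 CPM, with 1120 CPM in WT 2 and 2041 CPM in WT 4 at the ends of its range. It shares 40.5% of its words with other genes. Kap stood second among nuclear genes both by counts and per length (9724 ± 2592 FPKM), behind Gpx3 (18427 ± 1818 FPKM). S100g, which codes for the calcium-binding protein calbindin-D9k, stood at place 89 by counts and at place 4 among nuclear genes per length, with 1722 ± 339 FPKM.

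Among the ATPases and channels, subunits of the sodium pump stood high. Atp1b1, its beta subunit, had 2854 ± 169 CPM and Fxyd2, a regulatory subunit, 1919 ± 131 CPM. Per length they had 926 ± 54.9 and 479 ± 32.7 FPKM, a difference larger than their spread. Among 311 Slc and Slco genes outside the mitochondrial carriers, 221 had a mean of at least 1 CPM. Slc27a2, which takes up and activates long-chain fatty acids, had 3351 ± 349 CPM (893 ± 92.9 FPKM), Slc34a1, the sodium-phosphate cotransporter of the proximal brush border, 3045 ± 313 CPM (651 ± 67.0 FPKM), and Slc12a1, the sodium-potassium-chloride cotransporter of the thick ascending limb, 1631 ± 346 CPM (283 ± 60.004 FPKM). Slc12a1 had its highest value, 2195 CPM, in WT 3, as Umod did. The mitochondrial carriers held 0.642% ± 0.0134, led by the ADP/ATP carrier Slc25a5 and the phosphate carrier Slc25a3.

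Endocytosis and the brush border were led by long and by short genes, which the choice of unit separates. Lrp2 codes for megalin, the receptor for filtered proteins, and had 1727 ± 296 CPM but 103 ± 17.7 FPKM, since its transcript is very long. Its values were lower in WT 1 and WT 2 (1487 and 1371 CPM) than in WT 3 to WT 5 (1751 to 2035 CPM). Tcn2, which codes for a vitamin B12 carrier, and the scaffold gene Pdzk1 had 1351 ± 115 and 819 ± 88.0 CPM. Napsa, an aspartic protease, had 3337, 3773, 5163, 3069 and 3531 CPM, and WT 3 was again the highest. Lamp1, a lysosomal membrane protein, was among the steadiest of these, at 1305 ± 35.8 CPM. Cltrn codes for collectrin, a partner of amino acid transporters, and had 1228 ± 185 CPM.

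Fuel metabolism took several similar shares. Pck1 codes for the rate-limiting enzyme of gluconeogenesis (chromosome 2, 173153048 to 173159273) and had 3066, 2796, 2693, 1861 and 2080 CPM. WT 4 and WT 5 lay below the other 3 libraries, with a range of 1.65-fold. Gapdh had 1351 ± 196 CPM and was lowest in WT 2, at 1014 CPM, where 28.1% of its words are shared with other genes. Of the fatty acid genes, the omega-hydroxylases Cyp4a14 and Cyp4a10 had 1964 ± 364 and 1389 ± 79.5 CPM and the medium-chain acyl-CoA synthetase Acsm2 had 1555 ± 148 CPM. Cyp4a14 was at 2262 and 2448 CPM in WT 1 and WT 2 and at 1668 to 1750 CPM in the other 3. The nuclear subunits of oxidative phosphorylation were led by the ATP synthase genes Atp5b (2745 ± 140 CPM) and Atp5a1 (1962 ± 60.2 CPM), with Sdha of complex II at 849 ± 37.9 CPM. Tricarboxylic acid cycle genes held 0.505% ± 0.0108, with Idh2 and Ogdh at 552 and 546 CPM.

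Amino acid metabolism was led by Ass1, which makes argininosuccinate on the way to arginine, a synthesis for which the proximal tubule is known, with 1712, 1028, 1436, 1429 and 1553 CPM. Aadat, an aminotransferase of lysine and kynurenine breakdown, had 1342, 1410, 2071, 1048 and 1256 CPM, a 1.98-fold range, and Aldh6a1 of valine breakdown had 1005 ± 57.6 CPM. Among genes of sugar and inositol metabolism, Akr1a1, Sord and Miox had 1463 ± 165, 1419 ± 153 and 1279 ± 80.7 CPM. They code for an aldehyde reductase, sorbitol dehydrogenase and the myo-inositol oxygenase that is nearly restricted to kidney. Xenobiotic metabolism was led by the sulfotransferase Sult1d1 (1698 ± 236 CPM), the glycosyltransferase Ugt3a2 (1021 ± 77.6 CPM) and the epoxygenase Cyp2j5 (924 ± 54.4 CPM). Genes that every cell uses took modest shares. Eef1a1, the elongation factor that brings aminoacyl-tRNA to the ribosome, had 3958 ± 273 CPM and Eef2 1757 ± 164 CPM, Tpt1 had 1059 ± 172 CPM, and no ribosomal protein gene exceeded Rplp0, at 724 ± 76.4 CPM. Eef1a1 shares 51.5% of its words with other genes and was highest in WT 2, at 4197 CPM. Cdh16, a kidney-specific cadherin, led the cytoskeleton and adhesion class with 1018 ± 101 CPM. Of the genes in no named class, Ndrg1, a gene known to respond to low oxygen, had 3000 ± 352 CPM, the membrane protein gene Tmbim6 2165 ± 199 CPM and the phospholipid synthesis gene Chpt1 1691 ± 100 CPM.

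**Figure D4:**
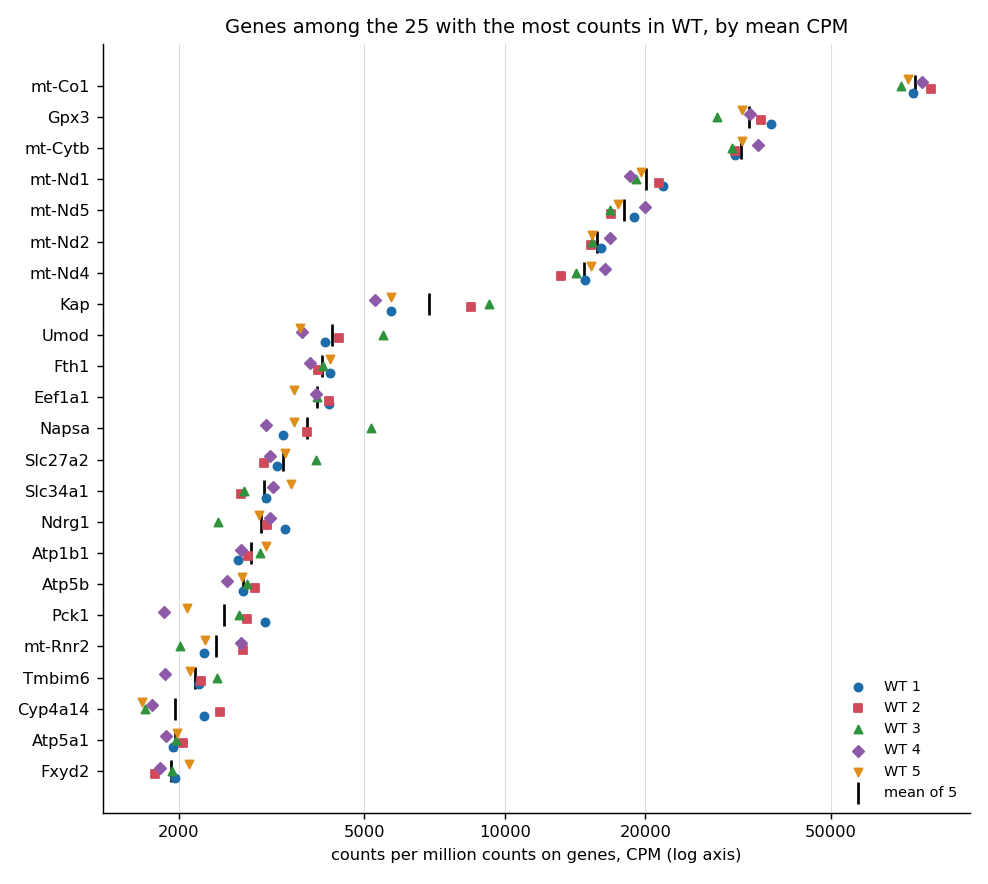
CPM (log axis) in each of the 5 WT samples of 23 of the 25 protein-coding or mitochondrially encoded genes of highest mean CPM, with the mean as a bar. The values run from 81981 CPM for mt-Co1 in WT 2 to 1668 CPM for Cyp4a14 in WT 5, and the nuclear genes Kap, Pck1 and Napsa spread by 1.75-, 1.65- and 1.68-fold.

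Ranking per length moved the order from long to short transcripts. The nuclear genes among the 100 leading by CPM had a median length of 3092.5 bases, the 100 leading nuclear genes by FPKM 2010 bases, and all nuclear genes with a mean of at least 1 CPM 4536.5 bases. The 20 leading nuclear genes by FPKM included Igfbp7, Rplp1, Cox8a, Cox6a1 and Spp1, of which Rplp1, Cox8a and Cox6a1 stood between places 147 and 197 by counts. Spp1 codes for osteopontin and had 806 ± 63.7 FPKM, and the respiratory complex IV subunit genes Cox8a and Cox6a1 had 881 ± 76.6 and 821 ± 43.4 FPKM.

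Genes known to rise in a fast were described as a list of 13. Of these, 12 had a mean of at least 1 CPM, and Fgf21, a hormone gene of the fasting liver, was near 0 (0.00373 CPM). The summed level was 9243, 8952, 8097, 7155 and 7033 CPM in WT 1 to WT 5, a 1.31-fold range with WT 4 and WT 5 lowest. Pck1, Cyp4a14 and Cyp4a10 made up most of it. Cpt1a, which lets fatty acids into mitochondria, had 501 ± 31.3 CPM, the last gene of gluconeogenesis G6pc 367 ± 52.3 CPM, and the pyruvate dehydrogenase kinase gene Pdk4 39.3 ± 9.94 CPM. Genes of sterol and fatty acid synthesis were also counted: all 18 were above 1 CPM, with a sum of 2080 to 2625 CPM, of which the desaturase gene Scd1 gave 969 ± 119 CPM. With no fed mice, neither sum can be read as a change.

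Expressed genes varied little between the 5 WT libraries. Over 10448 protein-coding genes with a mean of at least 5 CPM, the SD of log2(CPM + 0.5) after TMM scaling had a median of 0.13, with the 10th and 90th percentiles at 0.065 and 0.26. At 5 CPM, counting alone gave an SD of about 0.084. The SD was 0.5 or more for 106 genes (1.01%) and 1 or more for 12. In the 5 GCERAd libraries, which the ranking did not use, the same genes had a median SD of 0.17. There, 452 (4.33%) had an SD of 0.5 or more, among them 73 of the 106. Abundant genes varied about as much as the others, with a median SD of 0.14 over the 98 of the 100 leading genes that are protein-coding, and none of them reached 0.5. The highest were Acadm (0.40), Kap and Aadat. At the threshold, Acsm3 and Noct (0.504 and 0.503) lay just inside and Serpina1d and Cebpd (both 0.499) just outside.

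The 20 genes that varied most fell into different patterns across the libraries. mt-Atp8 varied most (SD 2.15), followed by Snx29 (1.47), mt-Co2 (1.45), Ccl28 (1.43), Hba-a2 (1.32) and Igf2 (1.24). The list also held mt-Atp6, mt-Co3 and mt-Nd3, so that 5 of the 20 are scarce mitochondrial mRNAs described above. Psca and Ces2b closed it (0.90 and 0.88), and mt-Nd4l came next (0.88).

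In 7 of the 20 a single library, WT 3, lay highest and apart. Ccl28, a chemokine gene of epithelia (chromosome 13, 119623819 to 119654359), had 6.96, 9.46, 54.2, 4.53 and 4.58 CPM in WT 1 to WT 5. Igf2, an imprinted growth factor gene (chromosome 7, 142650766 to 142666816), had 35.9, 38.7, 219, 36.5 and 24.9 CPM. Akr1c18, the gene of a progesterone-metabolising reductase, had 117, 137, 463, 63.5 and 76.6 CPM. WT 3 stood several-fold above the range of the other 4 in each. Sec14l3, a gene of a lipid-binding protein, had 90.3 CPM in WT 3 and 11.7 to 22.1 CPM elsewhere. Hdc, which makes histamine, had 13.7 against 2.13 to 3.95 CPM, the carboxylesterase gene Ces2b 13.3 against 2.07 to 4.77 CPM, and mt-Nd3 72.4 against 9.34 to 22.3 CPM. Over all expressed genes WT 3 lay at least 1.5-fold above the range of the other 4 libraries in 76 and below it in 17. WT 3 also had the highest sum of the thick ascending limb markers (10509 CPM against 7335 to 8049 CPM, over 7 markers) and the lowest of the podocyte markers (392 against 459 to 549 CPM). It was lowest for smooth muscle markers too (47.3 against 59.7 to 63.7 CPM, with all 5 detected). The part of the cortex's make-up in the WT 3 values was not tested, and fewer cells of a type and less RNA per cell cannot be told apart in bulk samples.

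In another set WT 2 lay apart. Sumo2, which codes for a ubiquitin-like modifier, had 25.1, 5.42, 23.9, 23.99 and 24.5 CPM in WT 1 to WT 5. Atp5l, an ATP synthase subunit gene (chromosome 9, 44912557 to 44920742), had 175, 40.4, 175, 175 and 188 CPM. Hba-a2, an alpha globin gene, had 0.462 CPM in WT 2 and 5.46 to 7.98 CPM in the others. Bloc1s1, a lysosome biogenesis gene, went the other way, with 29.1 CPM in WT 2 against 6.25 to 7.23 CPM. WT 2 lay at least 1.5-fold below the range of the other WT libraries in 98 genes and above it in 19. No other library lay below in more than 17 genes. The 98 genes shared a median of 30.0% of their words with other genes and 65 of them shared over 20%, against a median of 1.51% and a share of 10.5% of genes over all 10448. The 19 genes shared a median of 6.97%. Atp5l shared 14.2%, and Bloc1s1 53.1%, mostly with the protein-coding gene Rdh5. The coding windows of Hba-a2 and Sumo2 are shown beside their closest copies, with no capitals because no base differs. Hba-a2 (chr11:32296524-32296583, plus strand) is set beside Hba-a1 (chr11:32283707-32283766, plus strand), and Sumo2 (chr11:115534624-115534683, minus strand) beside the pseudogene Gm10241 (chr16:20176932-20176991, minus strand). Over its whole transcripts Sumo2 shared 22.5% of its words with other genes, and 14.3% with Gm10241. Hba-a2 shared 92.6% with Hba-a1. Gm10241 was counted at only 0.0411 CPM in WT, and Hba-a1 at 15.2 CPM.
Hba-a2: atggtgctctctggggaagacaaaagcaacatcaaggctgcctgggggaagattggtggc
Hba-a1: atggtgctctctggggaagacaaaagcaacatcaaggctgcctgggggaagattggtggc
Sumo2: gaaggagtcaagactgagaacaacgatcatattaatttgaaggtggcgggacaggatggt
Gm10241: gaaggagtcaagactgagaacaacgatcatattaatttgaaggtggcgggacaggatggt
The same set of genes split the GCERAd libraries, which had no part in choosing it. GCERAd 3, 4 and 5 had processed pseudogene shares of 0.0574 to 0.0651%, as WT 2 did, and GCERAd 1 and 2 had 0.0320 and 0.0329%. Of the 98 genes low in WT 2, 97 had a lower mean in GCERAd 3 to 5 than in GCERAd 1 and 2, by a median log2 difference of -0.84 against -0.90 in WT. Of the 19 genes high in WT 2, all 19 were higher there. The parts of library preparation and of sequencing in these values were not tested. Without WT 2, 97 genes had an SD of at least 0.5, and 13 of the 20 most variable genes stayed among the first 20, mt-Co2, Hba-a2, mt-Co3, Atp5l, Sumo2, Bloc1s1 and Psca being replaced by Slc22a26, Ldc1, Klf10, Il18bp, Cyp27b1, Alb and Slc9a8. Without WT 3 the number was 88, and again 13 of the 20 stayed.

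Another pattern separated WT 1 and WT 2 from WT 4 and WT 5. Snx29, a sorting nexin gene (chromosome 16, 11322908 to 11755472), had 8.00 and 6.86 CPM in WT 1 and WT 2 and 66.2, 46.4 and 36.8 CPM in WT 3 to WT 5. In the GCERAd libraries it varied little, at 68.6 to 78.9 CPM. Cdk5rap1, which modifies mitochondrial tRNA, was likewise lower in WT 1 and WT 2 (5.45 and 7.52 CPM) than in the other 3 (17.2 to 33.7 CPM). Depp1, a gene known to be induced by fasting through FOXO factors, ran the other way, with 23.6, 23.6, 13.3, 6.26 and 5.41 CPM. Psca, which codes for a membrane-anchored surface protein, had 9.09 and 8.74 CPM in WT 1 and WT 2 and 1.77 to 3.44 CPM in the rest. Nr4a1, an immediate early nuclear receptor gene, had 2.85, 1.83 and 3.09 CPM in WT 1 to WT 3 and 9.31 and 9.80 CPM in WT 4 and WT 5. The summed level of 16 immediate early genes was close in all 5 (214 to 261 CPM). The similarity of WT 1 and WT 2 given above moves with this pattern, and its part was not tested.

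**Figure D5:**
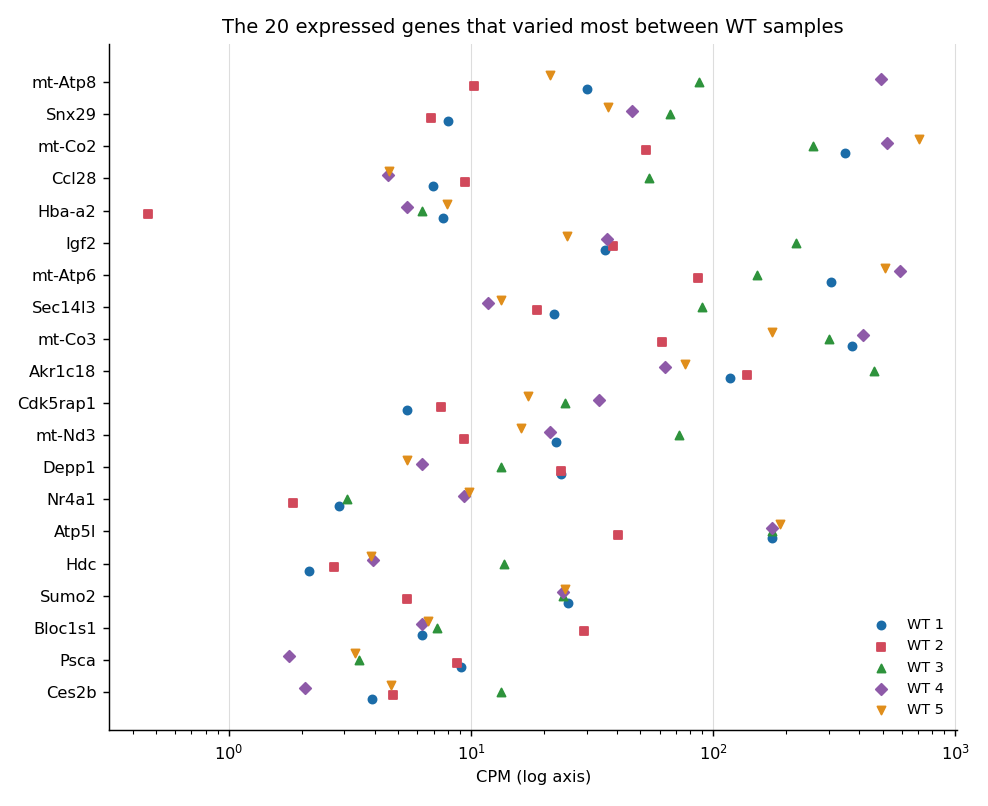
CPM (log axis) in each of the 5 WT samples of the 20 protein-coding genes of at least 5 CPM with the highest SD of log2 CPM, the most variable at the top. WT 3 lies alone at the right for Ccl28, Igf2, Sec14l3 and Akr1c18, and WT 2 alone at the left for Hba-a2, Atp5l and Sumo2.

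At the other end, the 10 steadiest genes of at least 50 CPM had SDs of 0.0097 to 0.019. Fam8a1, a membrane protein gene, had 91.3, 92.6, 92.4, 92.3 and 92.7 CPM in WT 1 to WT 5. The other 9 were Preb, Mrfap1, Trim44, Nploc4, Slc25a51, Tax1bp1, Zfp706, Ctnnb1 and Dgcr2. Ctnnb1 codes for beta-catenin and was the most abundant of them by counts (487 to 501 CPM), and Slc25a51 codes for the mitochondrial carrier of NAD+. Gapdh, often used as a reference gene, ranged 1.49-fold and was not among them.

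The WT make-up was set against the GCERAd cortices to show where it differs. The groups also differed in sex-linked transcripts. Xist was at 0 to 6.07 CPM and the 4 Y-linked genes summed to 124 to 147 CPM in GCERAd, against 146 to 425 CPM and 0 to 0.308 CPM in WT. This is the pattern of female mice in WT and of male mice in GCERAd, although sex was not given in the sources. The genotype and sex, with whatever else goes with that difference, cannot be told apart in any value of this comparison. Of 21 shares (20 groups of genes and the 100 leading genes), 11 differed (two-sided exact permutation test over 5 against 5 samples, Benjamini-Hochberg adjusted p of 0.0167 or 0.0303, smallest possible raw p 0.00794). WT had more mitochondrially encoded counts (18.2% ± 0.754 against 14.4% ± 1.83), more cytosolic ribosomal protein counts (1.98% ± 0.131 against 1.41% ± 0.180) and more nuclear oxidative phosphorylation counts (2.61% ± 0.167 against 2.33% ± 0.119). It had less in kidney secreted genes (2.56% ± 0.239 against 3.94% ± 0.675) and xenobiotic metabolism (1.64% ± 0.0542 against 2.19% ± 0.0803). It also had less in brush border and lysosomal hydrolases, Slc transporters, amino acid metabolism, sugar metabolism and fatty acid oxidation. Kap alone (6875 ± 1833 CPM in WT against 24280 ± 6448 CPM in GCERAd) differed by more than the whole kidney secreted class. The other genes of that class together thus held more in WT than in GCERAd, a difference that was not tested. For fatty acid oxidation (2.29% ± 0.140 against 3.25% ± 1.01) the call was lost when any WT library was left out (exact permutation test, adjusted p of 0.131 to 0.226). The nuclear oxidative phosphorylation call was lost without WT 2 and without GCERAd 1, 2, 4 or 5 (exact permutation test, adjusted p of 0.0667 to 0.0758). The share of the 100 leading genes was higher in WT (35.8% ± 0.628 against 33.9% ± 0.803). That call was lost without WT 2 (exact permutation test, adjusted p = 0.0556). These genes were chosen for their WT values, which tilts the test toward WT in advance. The call, counted among the 11, is therefore a description. With nuclear protein-coding counts as the denominator the difference in this share turned, its nuclear members holding 1.22 percentage points more in GCERAd (exact permutation test, adjusted p = 0.101). Among the libraries of lower pseudogene share alone (WT 1, 3, 4 and 5 against GCERAd 1 and 2) all 11 shares kept their direction, in a design whose smallest possible p is 0.0667. The difference, GCERAd minus WT, went from 0.956 to 0.244 percentage points for fatty acid oxidation and from -3.78 to -2.37 for mitochondrially encoded genes. Leaving out GCERAd 4 or GCERAd 5 alone gave 0.716 or 0.646 for fatty acid oxidation, and leaving out GCERAd 3 alone gave 1.14. For mitochondrially encoded genes these values were -3.27, -3.31 and -4.09. With WT 1 and WT 2 averaged as 1 sample, 10 of the 11 calls held and that of fatty acid oxidation was lost (exact permutation test, adjusted p = 0.153).

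Among the 100 leading WT genes, 32 were called different in GCERAd (20 higher and 12 lower, edgeR quasi-likelihood test, adjusted p of at most 0.05), beside 27.6% of the 11581 genes tested (14.1% higher and 13.5% lower). The genes were chosen for their WT values, so these counts are a description. Without WT 2 and GCERAd 3 to 5, 43 were called, 22 higher and 21 lower, beside 3183 of all 11605 genes tested. The median log2 difference over the 100 genes was then -0.0042, against 0.12 with all libraries. Among the 100 leading genes by the mean over both groups, 37 were called. The leading lists shared 84 of 100 genes. The furthest below WT in GCERAd were Aadat (1426 ± 386 against 276 ± 56.9 CPM, log2 fold change -2.31 ± 0.19 SE), Scd1 (969 ± 119 against 279 ± 70.2 CPM, -1.74 ± 0.17), Spp1 (-1.16 ± 0.17), Slc12a1 (-0.82 ± 0.14) and S100g (-0.81 ± 0.14), with edgeR adjusted p-values of 8.03e-06, 2.44e-05, 0.000502, 0.00131 and 0.00165. Among those furthest above were Kap (6875 ± 1833 against 24280 ± 6448 CPM, 1.88 ± 0.22), Acsm2 (1555 ± 148 against 4921 ± 713 CPM, 1.72 ± 0.12), Selenop (1253 ± 49.97 against 2528 ± 251 CPM, 1.07 ± 0.09) and Cyp2j5 (1.02 ± 0.11), with adjusted p-values of 0.000127, 2.19e-06, 6.89e-06 and 4.81e-05. Kap is known to be androgen-regulated and Cyp4a14 to be higher in female kidneys. Cyp4a14 was at 1155 ± 1533 CPM in GCERAd and was not called (edgeR adjusted p = 0.657). Pck1 was at 3816 ± 3642 CPM in GCERAd against 2499 ± 507 CPM in WT and was not called either (edgeR adjusted p = 0.415). Of the 20 most variable WT genes 19 were tested and 1 was called. They were chosen for their spread within WT, which makes a call less likely in advance, so this count is also a description.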

How the data were processed

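Cortex RNA was sequenced from TruSeq stranded mRNA libraries. The authors converted base calls with bcl2fastq 2.20, trimmed reads with cutadapt, aligned them with STAR to GRCm38 and counted reads per gene with HTSeq, and the deposited values are whole-number counts, not normalized. The annotation release, the strand setting and the treatment of reads with several alignments were not given in the sources used here. WT libraries held 53688512 to 66988264 counts, so that 1 count is worth 0.0149 to 0.0186 CPM. TRACK and GCERAdT libraries were not analysed here, apart from 1 alternative fit.

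CPM was computed over all genes. FPKM used merged exon lengths of GENCODE M21 (48435 of 48795 genes matched). Variability is the SD over 5 WT libraries of TMM-scaled log2(CPM + 0.5), for protein-coding genes of at least 5 CPM. Shared sequence is the percent of 31-base words of a gene's transcripts found in another gene. Shares of counts were compared by a two-sided exact permutation test, adjusted over 21 shares. WT and GCERAd were compared gene by gene with the quasi-likelihood test of edgeR 4.0.16 and Benjamini-Hochberg adjustment (R 4.3.3). DESeq2 1.42.0 was an alternative. Python 3.11.15, pandas 2.3.3, numpy 2.4.6 and scipy 1.17.1 were used. On simulated 2-fold changes in 200 of 11581 genes, the edgeR test recovered 87%, with 13 unchanged genes called.

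The genes named are the 25 leading by CPM, the 20 leading nuclear genes by FPKM, the 3 leading members of each class, the 20 most variable, the 10 steadiest of at least 50 CPM, Atf4, Ggt1, Xist and the Y-linked genes, the markers of the lists by their sums, and the 5 furthest in each direction from GCERAd among the 100 leading. Others, among them the selenoprotein genes beyond Gpx3, members of the fasting list and genes at thresholds, were chosen after their values were seen. The members and lists were chosen with earlier results of these data known. Nothing in the labels says that each library of a group came from its own mouse, and p-values measure only the spread between these samples, which may be technical. Limits set by a count of 0 (3 counts) cover counting error only. Some genes that the rule names are not reported here.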

Additional observations from a re-analysis of the deposited data

Results flagged for a closer look

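Of 126 values tested over the 5 WT libraries, 18 had 1 library far from the other 4, with a gap above 0.71 of the whole range. Chance alone marks about 1 in 20 such groups. That rate does not apply to 11 of the 18, which are among the 20 most variable genes and so were chosen for their spread over these same libraries. In 11 of the 18 the library apart was WT 3. It was highest for the summed thick ascending limb markers (10509 CPM), skeletal muscle markers (11.5 CPM) and fetal and imprinted genes (299 CPM), and lowest for smooth muscle markers (47.3 CPM). The skeletal muscle sum of WT 3 was mostly Myh1 (10.4 CPM), and 4 of the 9 markers had 0 counts in all WT libraries. Its fetal and imprinted sum was mostly Igf2, which is listed again on its own. Neither sum thus speaks for its list as a whole. WT 3 was also highest for Ccl28 (54.2 CPM), Igf2 (219 CPM), Sec14l3 (90.3 CPM), Akr1c18 (463 CPM), mt-Nd3 (72.4 CPM), Hdc (13.7 CPM) and Ces2b (13.3 CPM). In 5 it was WT 2, with the lowest Atp5l (40.4 CPM) and Sumo2 (5.42 CPM), the highest Bloc1s1 (29.1 CPM) and Rplp1 (557 CPM), and the only counts of Y-linked genes (0.308 CPM). WT 4 was highest for mt-Atp8 (494 CPM), and WT 5 lowest for fibroblast and mesangium markers (81.2 CPM). The causes were not tested.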

How the results depend on the processing

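With nuclear protein-coding counts as the denominator, mitochondrially encoded genes came to 22.5% and the nuclear members of the 100 leading genes to 22.04%. As shares of the length-scaled level, the mitochondrial class held 34.1% and the 100 leading genes 51.6%, and 353 nuclear genes reached 50%. The 106 genes with an SD of at least 0.5 became 221 with a minimum of 1 CPM, 53 with a minimum of 20 CPM and, in an alternative chosen after seeing the data, 63 without genes sharing over 20% of their words. Leaving out 1 WT library gave 88 to 154. Replicate numbers did not pair the samples: the correlations of same-numbered WT and GCERAd libraries ran from -0.638 to 0.143. With the replicate block, 0 of the 21 shares were called, in a paired design whose smallest exact permutation p is 0.0625, and 22 of the 100 leading genes and 2106 genes in all were called. Without that block, 32 of the leading genes were called, and 25 to 31 with 1 library left out, 40 with DESeq2 and, added after seeing the data, 43 without WT 2 and GCERAd 3 to 5. Over all genes tested, 2477 to 3246 were called with 1 library left out. The number was 3627 with DESeq2 and 3183 without WT 2 and GCERAd 3 to 5. With the nuclear denominator the Slc transporter and amino acid calls were also lost (exact permutation test, adjusted p of 0.104 and 0.0503). Depth limits genes under about 5 CPM, where counting adds visibly to the spread.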

Other observations

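Other lists of genes were summed in the 5 WT libraries as values with no comparison. The 18 genes of the core clock and its output summed to 778 to 918 CPM, and 9 heat shock genes to 1266 to 1871 CPM, of which Hspa8, a constitutive chaperone, gave 974 CPM. WT 2 was the lowest library for heat shock genes. The 8 antigen presentation genes summed to 912 to 1260 CPM, highest in WT 1 and WT 2. The 9 glucocorticoid-responsive genes summed to 358 to 540 CPM and were lowest in WT 3. The 12 interferon response genes summed to 140 to 164 CPM, 10 proliferation genes to 32.4 to 35.3 CPM and 13 genes of the integrated stress response, which ATF4 serves, to 319 to 354 CPM. The 11 tubule injury genes summed to 1525 to 1779 CPM, of which Spp1 gave 80.1%, and the 12 hypoxia-inducible genes to 2938 to 3881 CPM, of which Ndrg1 gave 85.5%.

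Among cell type lists, markers of the distal convoluted tubule summed to 879 to 1283 CPM, of principal cells to 970 to 1110 CPM, of intercalated cells to 323 to 366 CPM and of endothelium to 329 to 390 CPM. Juxtaglomerular markers summed to 26.3 to 47.1 CPM, nearly all from the renin gene Ren1. Erythroid genes summed to 71.8 to 132 CPM and adipocyte genes to 46.0 to 74.9 CPM, of which the fatty acid binding protein gene Fabp4 gave 88.6%. B and plasma cell genes summed to 9.00 to 24.2 CPM and urothelial genes to 4.37 to 9.39 CPM. T cell, neutrophil, brown adipocyte and adrenal cortex markers each summed to less than 5 CPM in every WT library. The 10 genes higher in female kidney summed to 3067 to 3919 CPM and the 12 genes higher in male kidney to 5853 to 9793 CPM, of which Kap gave 91.3%.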
